A study of Mus musculus with 4 samples.

Results

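The 10 mouse genes described here encode chains of cytoplasmic dynein 1, from the heavy chain Dync1h1 to the light chain Dynlt3. Every probe set mapped to 1 of these genes and to no other gene was taken, which gave 19 of the 34945 probe sets listed with a single gene and 10 of 18193 genes. A probe set was kept for counts when its mean log2 intensity over the 4 arrays was at least 5, an intensity of 32 called the detection level here, and 16 probe sets of 8 member genes were kept, against 16206 probe sets in all. The 3 others had intensities from 5 to 9 in every line and stood for Dync1i1, Dynlrb2 and one of the probe sets of Dync1h1.

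Cytoplasmic dynein 1 is the motor that carries organelles, vesicles and chromosomes toward the minus ends of microtubules, which in most cells lie near the nucleus. A pair of heavy chains holds the motor domains, intermediate and light intermediate chains bind to the tail of the heavy chains, and 3 families of light chains (Tctex, LC8 and roadblock) bind to the intermediate chains as dimers. In melanocytes, the pigment cells of the skin, dynein moves melanosomes, the organelles that make and hold melanin, inward from the cell periphery. Dynlt3 is a Tctex family light chain.

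RNA was measured in 4 melanocyte lines, each from the skin of a pup 3 days old on a C57BL/6J background, with 1 array per line. By the sample labels, 9v (male) and 14d (female) were WT and 10d (male) and 13d (female) were bcat*, that is, from transgenic mice with a stable, active β-catenin in the melanocyte lineage. The article's Methods name 13d as WT and 14d as bcat*, so each value below is given by line, the labels set the groups of the main test, and the exchanged reading stands beside it. All lines were immortalized, grown in Ham's F12 with 10% serum and 200 nM TPA, a phorbol ester that melanocytes need in culture, and lysed at 80% confluency, keratinocytes not growing in this medium and fibroblasts having been selected against. Each line came from its own pup and was not repeated, so a difference between single lines has no replicate check and the spread within a genotype is that between 2 lines.

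The arrays were alike in their deposited values, with quartiles of 5, 7 to 8 and 227 to 236. Of their probe sets, 35.8% to 36.1% were at or above the detection level. The submitters' processing normalizes between arrays, so this likeness is no separate check of them. Xist was at 1768 or more in both lines labelled female and at 4 in both labelled male, and 3 Y-linked genes were above the detection level in the latter and in no other line, so that the labelled sexes were matched. Of 10 melanocyte markers, 10 were above the detection level. Of the markers of other cells, 5 of 6 for keratinocytes, 5 of 6 for fibroblasts and 4 of 4 for immune cells were below it in every line. The summed intensities of these lists were 135 to 297, 66 to 227 and 37 to 42. The keratinocyte exception, Krt10, was at 148 in 9v, 106 in 14d, 268 in 10d and 156 in 13d. Krt10 was thus higher in both labelled bcat* lines than in both labelled WT lines. The fibroblast exception, Col1a2, was at 175, 17, 80 and 24 in those lines. The part of either in the results below was not tested. Among Schwann cell markers, Cdh19, which melanocytes also express, ran from 4906 to 8492 while Mbp was at 8 or less, and the list's sum, nearly all of it Cdh19, was 5012 in 9v, 5287 in 14d, 8620 in 10d and 7682 in 13d. Of its 4 measured genes, 1, Cdh19, was higher in both labelled bcat* lines than in both labelled WT lines, and its part in the results below was not tested. Foxd3 (54 in 9v, 23 in 14d, 67 in 10d and 23 in 13d) and Pmp2 (44, 9, 54 and 15) were higher in the male lines. Ctnnb1 encodes β-catenin, and the transgene was made from it. Its intensities were 30254 in 9v, 31844 in 14d, 31799 in 10d and 34368 in 13d. Whether its probe set reads the transgene, the endogenous gene or both was not tested.

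Dynlt3 was the member that differed most between lines. Its brightest probe set, 1459854_s_at, had an intensity of 11518 in 9v, 11963 in 14d, 4764 in 10d and 4055 in 13d. The suffix of this probe set marks probes that may read several transcripts, and the other Dynlt3 probe sets carry no such suffix. The second brightest, 1449929_at, read 5695, 6950, 2368 and 2105 in the same order of lines. In each of them 10d and 13d were low, 9v and 14d were high, and the lines did not overlap.

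The dimmer pair of Dynlt3 probe sets gave the same picture. Probe set 1420614_at had intensities of 4335 in 9v, 5128 in 14d, 1636 in 10d and 1547 in 13d. Probe set 1449928_at had intensities of 3282, 3574, 1221 and 1006 in those lines. Each of the 4 probe sets put the lines in the order 13d, 10d, 9v and 14d from low to high. These probe sets hybridize with the same RNA on the same array, so they are repeat readings of 4 lines and not replicates.

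**Figure D1:**
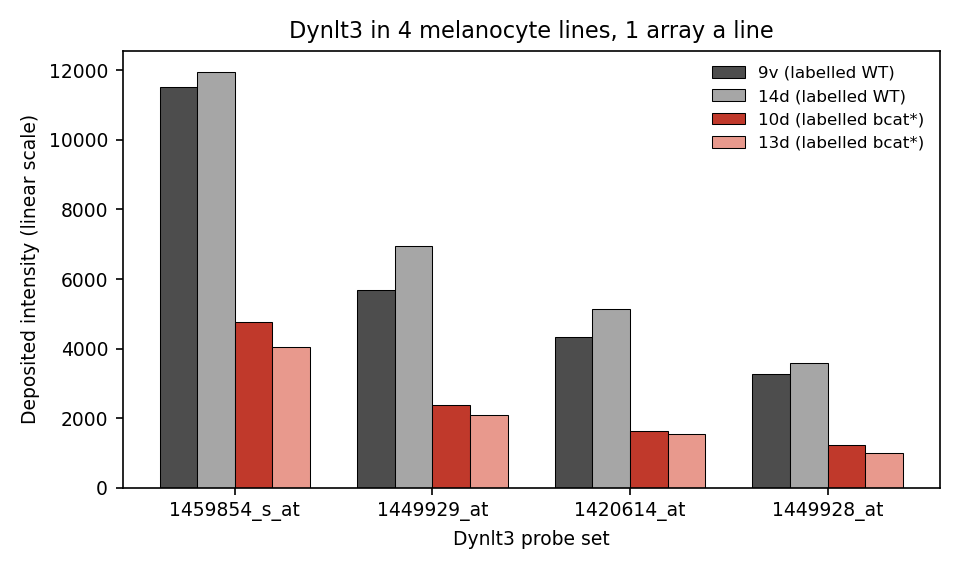
Bars give the intensity on a linear axis from 0 for each Dynlt3 probe set in lines 9v and 14d (greys, labelled WT) and 10d and 13d (reds, labelled bcat*), 1 array per line and therefore without error bars. In every probe set both red bars stood below both grey bars, from 4764 against 11518 in the brightest to 1221 against 3282 in the dimmest.

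The gap between the pairs of lines was wide beside the gap inside each pair. The lower of the lines 9v and 14d was 2.40 to 2.69 times the higher of 10d and 13d over the 4 Dynlt3 probe sets. Within the labelled WT lines the ratio of 14d to 9v was 1.04 to 1.22, and within the labelled bcat* lines the ratio of 13d to 10d was 0.824 to 0.946. In the female pair the ratio of 13d to 14d was 0.281 to 0.339, and in the male pair that of 10d to 9v was 0.372 to 0.416. Dynlt3 lies on the X chromosome, and the female line was the higher of the labelled WT pair but the lower of the labelled bcat* pair.

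Set against all probe sets, the 4 of Dynlt3 were the only members of several counts. In line 10d, 4 of 16 member probe sets were at least 2-fold lower than in 9v, all of Dynlt3, where 9.19% of all probe sets were. These 4 are repeat readings, so here and in the counts below they stand for 1 of 8 member genes. None of the 16 was at least 2-fold higher, against 8.18% of all. In line 13d, 4 of 16 were at least 2-fold lower than in 14d, again those of Dynlt3, against 8.54% of all, and 1, a dim probe set of Dynll1, was at least 2-fold higher, against 11.6%. Both labelled bcat* lines lay at least 2-fold below both labelled WT lines in the same 4 member probe sets and in 303 probe sets, 1.87%, of all those above the detection level, a count chosen after the values had been seen.

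With the labelled genotypes, the log2 difference of bcat* from WT lines in a limma fit over all 16206 probe sets was -1.42 (SE 0.18) for the brightest Dynlt3 probe set and -1.49 (0.22), -1.57 (0.22) and -1.63 (0.24) for the others, with 2 lines per genotype. The limma p adjusted by Benjamini-Hochberg over all probe sets was 0.359 to 0.446, and by their unadjusted p they ranked 50 to 71 of 16206. Dynlt3 was thus not called, and neither was any other probe set above the detection level. In limma, 0 of 16 member probe sets and 0 of 16206 in all, or 0.0%, reached an adjusted p under 0.05. The smallest adjusted p was 0.076. At an unadjusted p under 0.05, 5 of 16 member probe sets, the 4 of Dynlt3 and that of Dynlrb1, stood against 7.35% of all. These 5 read 2 of 8 member genes. With labelled sex as a block 4 were left, those of Dynlt3, and without probe sets of possible cross-hybridization 3 were left. For these settings the share of all probe sets was not counted.

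With 13d and 14d exchanged, as in the article's Methods, each group held one high and one low line. The log2 difference of Dynlt3 was then 0.14 to 0.23 (SE 0.72 to 0.84, limma adjusted p 0.984 to 0.993). Under that reading limma called 0 members and 0.0% of all probe sets at an adjusted p under 0.05, with a smallest value of 0.313, and at an unadjusted p under 0.05 it held 0 members against 3.92% of all. The intensities by line do not depend on either reading. An exact permutation of 2 lines against 2 cannot give a two-sided p under 0.333. In RNA of whole cultures, fewer cells with the transcript and less transcript per cell cannot be told apart.

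To set the lower Dynlt3 transcript beside its promoter, the 250 bases before the start of Dynlt3 are shown with a short motif marked. The motif is a shortened form of the one known for Tcf/Lef proteins, the DNA-binding partners of β-catenin. The bases beside a match were not compared with the full motif. The sequence is from RefSeq (GRCm38.p6), chrX:9662984-9663233 on the minus strand, 5′ to 3′, and ends at the base before the transcript start. Capitals mark the only match to CTTTGA or CTTTGT on either strand.
Dynlt3: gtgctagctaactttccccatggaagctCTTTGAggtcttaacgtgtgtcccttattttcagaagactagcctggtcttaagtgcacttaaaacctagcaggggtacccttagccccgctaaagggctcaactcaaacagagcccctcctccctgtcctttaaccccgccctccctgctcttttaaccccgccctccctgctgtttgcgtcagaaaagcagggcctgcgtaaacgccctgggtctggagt

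The match ran from 222 to 217 bases before the start. At least 1 match was found in 27.6% of the 32851 RefSeq windows of this length, and 30.8% of 27025 genes had one. Windows were given for 8 of the 10 members, and Dynlrb1 also had a match, 73 to 68 bases before its second start, as ACAAAG on the written strand. That match lay after the first start of Dynlrb1, and the window before the first start held none. The windows of the 6 other members held neither motif. A match of this length is a description of letters and says nothing about binding, and the window is only part of what may control a gene.

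The heavy chain and the light intermediate chains differed less. Dync1h1, the heavy chain with the motor domain, had intensities of 1310 in 9v, 997 in 14d, 1670 in 10d and 1064 in 13d by probe set 1416648_at. Dync1li1, a light intermediate chain that links dynein to cargo adaptors, had 1378, 1129, 1892 and 1235 in those lines by probe set 1424947_at. Both ordered the lines 14d, 13d, 9v and 10d from low to high, with 10d highest, and in both the highest was 1.68 times the lowest. Line 10d was the highest in 2 of 16 member probe sets, these ones, against 29.2% of all.

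Neither chain separated the labelled genotypes. The ratio of 10d to 9v was 1.27 for Dync1h1 and 1.37 for Dync1li1, and that of 13d to 14d was 1.07 and 1.09. In both genes 9v was above 13d, so the groups overlapped. The log2 difference by label was 0.22 (SE 0.35, limma adjusted p 0.870) for Dync1h1 and 0.29 (SE 0.32, limma adjusted p 0.818) for Dync1li1, and without line 10d it was -0.10 and -0.01.

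Dync1li2, the other light intermediate chain, had its highest value in 13d. Its intensities were 1481 in 9v, 1456 in 14d, 1357 in 10d and 2018 in 13d by probe set 1433926_at. By probe set 1433925_at they were 711, 653, 701 and 932. Line 13d stood alone above 3 lines that lay close together, and its ratio to 14d was 1.39 and 1.43 while that of 10d to 9v was 0.916 and 0.986. The log2 difference by label was 0.17 (SE 0.30) and 0.25 (SE 0.29), with limma adjusted p of 0.883 and 0.827, and for the first probe set it was -0.11 without 13d.

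Both Dync1li2 probe sets put 10d and 14d below 9v and 13d, the split of lines in the article's Methods. They were 2 of 16 member probe sets with that order, both of 1 gene, against 14.9% of all probe sets. A further 1 of 16, a probe set of Dynll2, had 10d and 14d above 9v and 13d, against 17.1%. The gap was small, as the higher of 10d and 14d minus the lower of 9v and 13d was -0.02 on the log2 scale in each Dync1li2 probe set. The exchanged log2 difference was -0.30 and -0.27 (limma adjusted p 0.961 for both).

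Dync1i2, the intermediate chain that binds the light chains and dynactin, was the steadiest member. Its intensities by probe set 1415841_at were 4870 in 9v, 4492 in 14d, 4861 in 10d and 4849 in 13d. The highest line was 1.08 times the lowest, and the log2 difference by label was 0.05 (SE 0.18, limma adjusted p 0.946). Dync1i1, the other intermediate chain and known from neurons, was at 7 to 8 in all lines and had no measured difference.

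**Figure D2:**
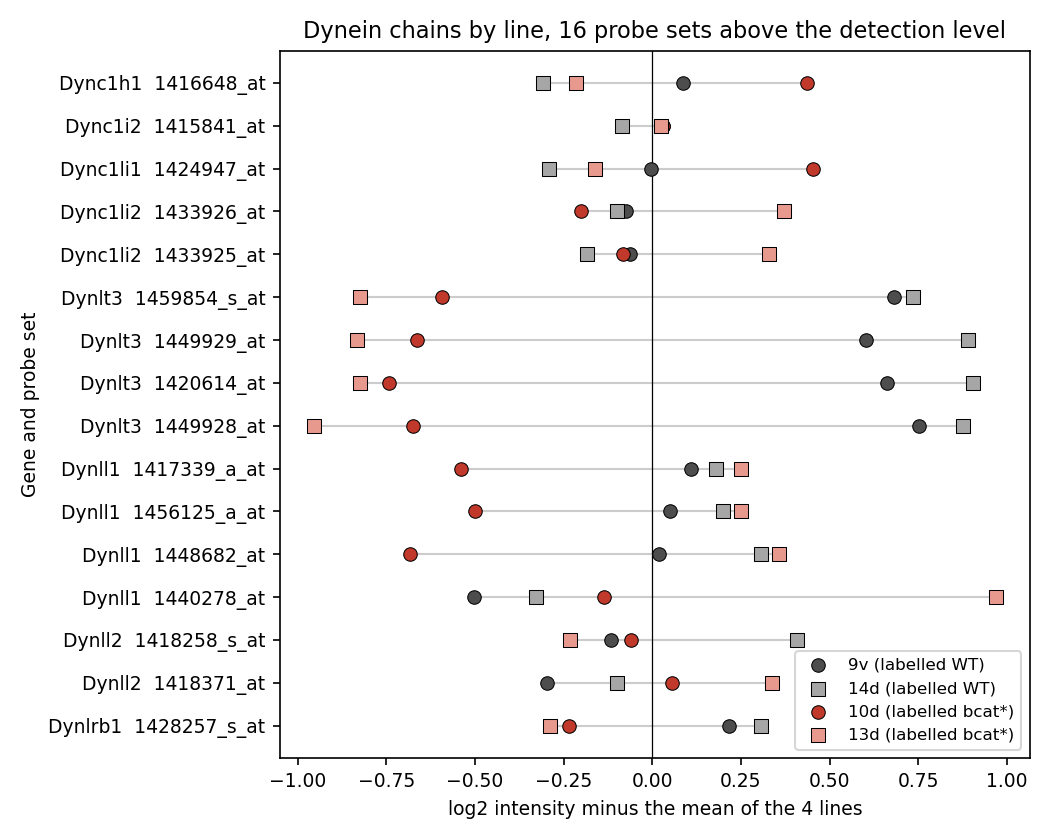
Log2 intensity of each line minus the mean of the 4 lines (horizontal axis) for the 16 member probe sets above the detection level, ordered by chain class, with greys for labelled WT and reds for labelled bcat* lines, circles for male and squares for female lines. The points of the 4 Dynlt3 probe sets fall into a low and a high pair, those of Dync1i2 nearly coincide, and 10d stands apart on the low side in 3 probe sets of Dynll1.

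Among the LC8 light chains, Dynll1 was low in 1 line. Dynll1 encodes the LC8 hub protein that dynein shares with many other partners. Its probe sets 1417339_a_at and 1456125_a_at had intensities of 24047 and 16852 in 9v, 25283 and 18708 in 14d, 15349 and 11520 in 10d, and 26551 and 19358 in 13d. Probe set 1448682_at had 10662, 13022, 6563 and 13503 in those lines. The suffix of 1417339_a_at and 1456125_a_at marks probes that may read several transcripts, and 1448682_at carries no such suffix. In all 3 line 10d was the lowest and 13d the highest, and the other labelled bcat* line was thus at the opposite end.

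The ratio of 10d to 9v was 0.616 to 0.684 in these 3 probe sets, and that of 13d to 10d was 1.68 to 2.06. Without 10d, the 3 other lines differed by 0.14 on the log2 scale in the brightest probe set, against 0.79 with it. Line 10d was the lowest in 4 of 16 member probe sets, these 3 and one of Dync1li2, against 25.9% of all. The log2 difference by label was -0.32 to -0.25 (limma adjusted p 0.804 to 0.838), and for the brightest it was 0.11 without 10d.

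The remaining Dynll1 probe set, 1440278_at, read near the detection level and did not follow the others. Its intensities were 31 in 9v, 35 in 14d, 40 in 10d and 86 in 13d. The log2 difference by label was 0.83 (SE 0.50, limma adjusted p 0.727). Both labelled bcat* lines were above both labelled WT lines in 2 of 16 member probe sets, this one and one of Dynll2, against 19.6% of all.

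Dynll2, the second LC8 chain, gave opposite directions by its probe sets. Its intensities were 5681 in 9v, 8159 in 14d, 5906 in 10d and 5239 in 13d by probe set 1418258_s_at, where 14d was the high line. By probe set 1418371_at they were 917, 1052, 1171 and 1424, where 13d was the highest and 9v the lowest. The log2 difference by label was -0.29 (SE 0.25, limma adjusted p 0.771) in the first and 0.39 (SE 0.26, limma adjusted p 0.739) in the second. The suffix of the first marks probes that may read several transcripts, and no direction is given for the gene.

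Dynlrb1, a roadblock light chain, was the other member whose lines fell into the order of Dynlt3. Its intensities by probe set 1428257_s_at were 11448 in 9v, 12187 in 14d, 8378 in 10d and 8062 in 13d. The labelled groups did not overlap, and the lowest WT line was 1.37 times the highest bcat* line. The ratio of 10d to 9v was 0.732 and that of 13d to 14d was 0.662, against 0.414 and 0.339 in the brightest probe set of Dynlt3. The log2 difference by label was -0.52 (SE 0.15, unadjusted p 0.024, limma adjusted p 0.660), and 0.07 with 13d and 14d exchanged. With labelled sex as a block its unadjusted p was 0.073 (limma adjusted p 0.735). Dynlrb1 rests on this probe set alone, whose suffix also marks probes that may read several transcripts. Dynlrb2, the other roadblock chain, was listed at 5 in all lines.

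Both labelled bcat* lines were below both labelled WT lines in 5 of 16 member probe sets, the 4 of Dynlt3 and that of Dynlrb1, against 19.4% of all. The full order 13d, 10d, 9v and 14d was found in these same 5 and in 5.55% of all probe sets. As 4 of the 5 read 1 gene, the count covers 2 of 8 member genes.

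**Figure D3:**
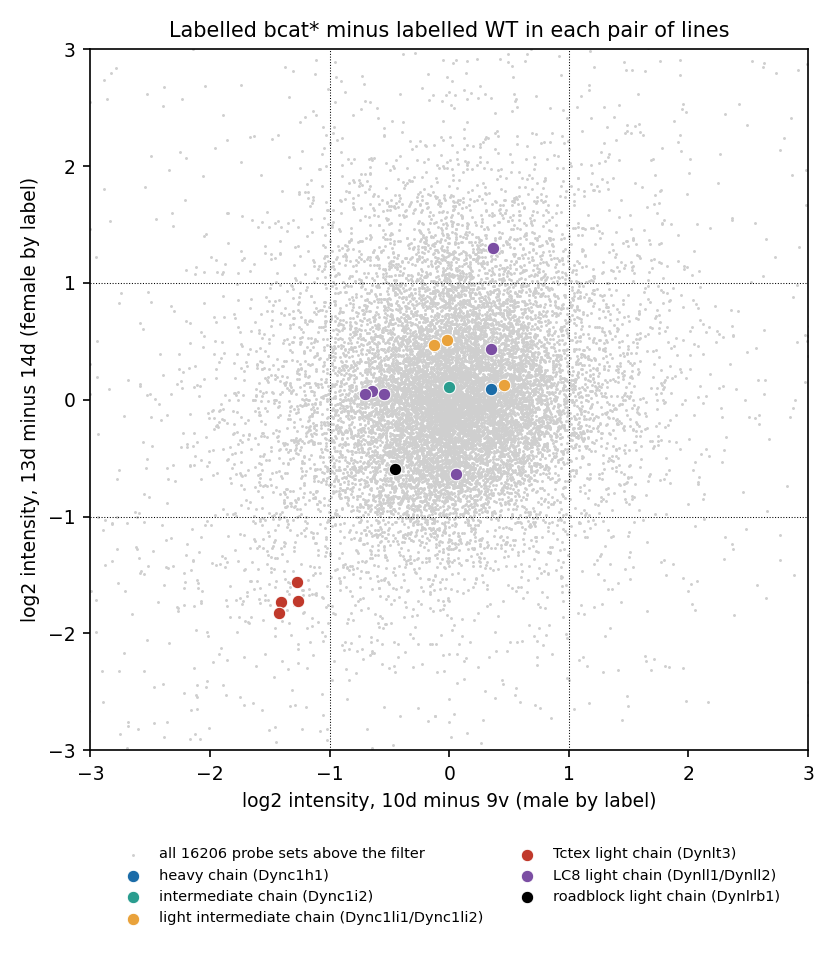
Log2 intensity of 10d minus 9v (horizontal) and of 13d minus 14d (vertical), labelled bcat* minus labelled WT in each pair, for 16206 probe sets (grey) and the 16 member probe sets by chain class (colours), with dotted lines at 2-fold. Axes end at 3 on the log2 scale, which leaves out 595 grey points and no member. The 4 Dynlt3 points lie beyond 2-fold on both axes, Dynlrb1 lies in the same quadrant within 2-fold, and no other member probe set is below 0 on both axes.

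The spread over the 4 lines needs no genotype. The highest line was at least 2-fold above the lowest in 6 of 16 member probe sets, 4 of Dynlt3 and 2 of Dynll1, against 40.9% of all. Ratios of highest to lowest were 2.95 to 3.55 for Dynlt3, 1.68 to 2.77 for Dynll1 and 1.08 to 1.68 for the 6 other genes. The 2.77 was that of the dim Dynll1 probe set 1440278_at, whose 31 in 9v lay under the detection level. The brighter Dynll1 probe sets reached at most 2.06. The median log2 spread was 0.75 over the 16 member probe sets, 0.69 over the 12 that do not read Dynlt3 and 0.85 over all probe sets. The median log2 difference of 10d from 9v was -0.29 for the members, -0.01 for those 12 and 0.02 for all, and the median of 13d minus 14d was 0.06, 0.10 and 0.0. By label, the median of bcat* minus WT was -0.27 for the 16, 0.11 for the 12 and 0.02 for all probe sets.

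**Figure D4:**
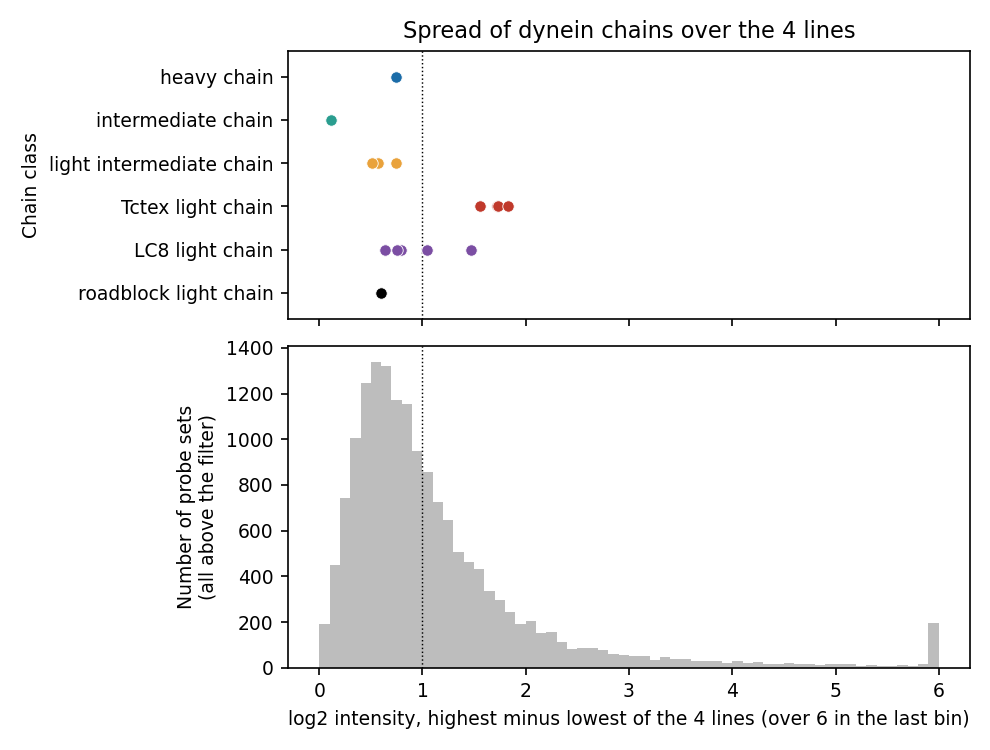
Log2 intensity of the highest minus the lowest line for the 16 member probe sets by chain class (top) and for all 16206 probe sets above the detection level as a histogram (bottom, number of probe sets in each bin, values over 6 in the last bin), with a dotted line at 2-fold. The Tctex chain Dynlt3 lies beyond 2-fold with 4 of 4 probe sets, the LC8 chains with 2 of 6, and the other classes with none. The LC8 point furthest to the right is the dim Dynll1 probe set 1440278_at, which was under the detection level in 9v.

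The genes whose brightest probe set followed the lines most as that of Dynlt3 did were named by the Euclidean distance between log2 values centred on each gene's own mean, over the 4 lines and among 3611 genes that spanned at least 2-fold. They were Galnt3 (distance 0.049), Wtip (0.069), Zc2hc1a (0.081), Msrb3 (0.091) and 1700008J07Rik (0.106). Galnt3, which encodes an enzyme of O-glycosylation, had intensities of 264 in 9v, 273 in 14d, 105 in 10d and 90 in 13d. Msrb3, a methionine sulfoxide reductase, had 610, 586, 240 and 199. With 4 lines, many genes share such a pattern. Among the other dynein chains, which were not held to the 2-fold span, the nearest was Dynlrb1 at 0.903. Dynll2, by its probe set 1418258_s_at, followed at 1.17 and Dynll1 at 1.34. Dync1i2, the steadiest chain, lay at 1.485, so distances of this size mean little likeness.

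The Tctex relatives of Dynlt3 did not share its line order. Probe set 1428116_a_at, listed with Dynlt1a, Dynlt1b, Dynlt1c and Dynlt1f together and so not a reading of any 1 gene, had intensities of 13154 in 9v, 15101 in 14d, 16450 in 10d and 19237 in 13d. Probe set 1453473_a_at, listed with the same 4 genes, had 9413, 11578, 11420 and 13840. In both 13d, the lowest line of Dynlt3, was the highest, and the highest was 1.46 and 1.47 times the lowest, within 2-fold. In 1453473_a_at line 14d lay above 10d, so the labelled groups overlapped there. A further probe set listed with 3 of them was at 4 in all lines, and the one of Dynlt1f alone was dim, at 41, 10, 27 and 90.

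Of 37 other genes of the pathway (dynein 2 chains, dynactin, regulators and cargo adaptors), 34 had a probe set of their own and 25 were above the detection level. In 9 of these 25 the highest line was at least 2-fold above the lowest, against 40.6% of 8892 genes, with a median log2 spread of 0.75 against 0.85. None of the 25 was called by limma at an adjusted p under 0.05, and in none did both labelled bcat* lines lie at least 2-fold below both labelled WT lines, against 2.09% of all genes. Both lay below in 5 of 25 and above in 4 of 25, against 20.4% and 19.3% of all genes.

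The pathway genes with the widest spread did not share the line order of Dynlt3 in full. Ninl, a ninein-like dynein adaptor, had 200 in 9v, 92 in 14d, 54 in 10d and 48 in 13d, so that here too both labelled bcat* lines were low, but 9v rather than 14d was the high line. Nin, a centrosomal adaptor, had 317, 154, 107 and 441, with 10d low and 13d high. Bicd2, an adaptor that activates dynein, had 2031, 714, 1612 and 1753, with 14d alone low. Of the dynein 2 chains, which move cargo inside cilia, the light intermediate chain Dync2li1 had 1361, 1552, 1374 and 944, while the heavy chain Dync2h1 was at 15 or less in every line.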

How the data were processed

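Deposited intensities, 1 per probe set and line, were whole numbers from 2 to 84904. The submitters' processing notes name GCRMA, which corrects background by probe sequence and normalizes between arrays, and dim values lie close to the lowest ones. No version of it and no further step is named in those sources. The values themselves show a linear scale, which no source states. They were used as deposited and taken to log2. Of 45037 probe sets, 34945 were listed with 1 gene by the platform annotation, 932 with several and 9160 with none.

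Groups followed the labels. Probe sets with a mean log2 of at least 5 entered limma 3.58.1 in R 4.3.3 (lmFit, eBayes with an intensity trend, Benjamini-Hochberg over 16206 probe sets). The fit was also run on simulated data with known changes, and the outcome is neither given nor used here. Single lines were compared by ratio, with a threshold of 2-fold. Pathway genes were named by widest spread (3), and genes most like Dynlt3 by distance (5). Members, lists and markers were chosen with earlier results of these data known, and the counts of line orders were added after the values were seen. No array was left out of the main test. Alternatives were exchanged genotypes, sex as a block, leaving out each line, filters, normalizations, an added 16 before log2, no trend, other probe set rules and thresholds of 1.5-fold and 3-fold. Promoter windows came from RefSeq tables. Python 3.11.15, NumPy 2.4.6, pandas 2.3.3 and matplotlib 3.10.9 were used. With 4 arrays, their number limits the precision.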

Additional observations from a re-analysis of the deposited data

Results flagged for a closer look

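For 4 of the 8 members above the detection level, the labelled bcat* line lay on the opposite side of the labelled WT line in the male and in the female pair, by brightest probe set. The difference between the pairs was not tested, since each holds 1 array per genotype, and 44.9% of all probe sets (7269 of 16206) did the same. For Dynll1 the log2 difference was -0.65 for 10d minus 9v and 0.071 for 13d minus 14d. For Dynll2 it was 0.056 and -0.64. For Dync1li2 it was -0.13 and 0.47. For Dync1i2, the steadiest chain, it was -0.0027 and 0.11.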

How the results depend on the processing

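With 13d and 14d exchanged, the log2 difference of bcat* from WT lines turned to 0.14 for Dynlt3, 0.073 for Dynlrb1, 0.35 for Dynll2, -0.30 for Dync1li2 and -0.056 for Dync1i2, and no member had an unadjusted p under 0.05. By label, 5 of 16 member probe sets, read from 2 genes, had such a p. With sex as a block 4 were left, and without probe sets of possible cross-hybridization 3 were left. The share of all probe sets was not counted under these last settings. Under the other alternatives Dynlt3 kept its direction, from -1.53 to -1.30 without 1 line, and over all its fits the limma adjusted p was 0.125 to 0.993. Leaving out 1 line gave -0.10 to 0.55 for Dync1h1, -0.014 to 0.60 for Dync1li1, -0.0045 to 0.11 for Dync1i2, -0.11 to 0.46 for Dync1li2, -0.68 to 0.11 for Dynll1 and -0.57 to -0.48 for Dynlrb1, and turned the sign in the first 5 of these without 10d, 10d, 14d, 13d and 10d. Dynll2 became 0.052 as the mean of its probe sets and 0.39 without the probe set of possible cross-hybridization. limma called 754 probe sets with no filter on low values, 13 after median centring, 7 without a trend and 0 without any 1 line, and no member under any of these. Median centring raised 10d against the others by 0.19 on the log2 scale, since its median was 2.81 against 3.0, and 10d minus 9v was then -1.08 for Dynlt3. Member probe sets lower in 10d than in 9v fell from 4 at 2-fold to 0 at 3-fold. Those spanning 2-fold over the lines, 6, became 13 at 1.5-fold, 3 at 3-fold, and 4 to 6 without 1 line. For neither count was the share of all probe sets taken under these alternatives, so the changed counts have no background to be read against. Values below the detection level are too coarse for any ratio.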
